A study of Drosophila melanogaster with 16 samples.

Results

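The genes described here are 9 genes grouped as genes of hemocytes, the blood cells of Drosophila, though not all are known to mark them: NimC1, eater, crq, NimA, He, Hml, Pxn, Ppn and srp. Every probe set annotated to just 1 of these symbols was taken, which gave 11 of the 18952 probe sets on the array, or 9 of 11982 gene symbols. NimA and Pxn had 2 probe sets each and the other genes 1 each. A probe set was tested where 2 or more arrays read 4 log2 or higher, a working level for low signal, and 10 of the 11 did so. The probe set left out was a Pxn probe set that read 2.21 to 2.49 on all 16 arrays.

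Total RNA was taken from dissected wing discs and brain complexes of larvae in the third instar and hybridised to Affymetrix expression arrays, 16 in all. The wing disc is the larval epithelium that forms the adult wing, and the brain complex is the larval central nervous system. Larvae carrying lgl27S3/lglE2S31, which the labels give as null for l(2)gl, and larvae carrying scrib1/scrib2 were dissected 9 days after the eggs were laid (3 arrays for each genotype in each tissue). Wild-type larvae were dissected at day 5 (2 arrays for each tissue). The labels mark both mutants as having tumours and the wild type as having none. Both mutated genes encode cytoplasmic scaffold proteins of epithelial cell polarity. All larvae were raised at 25 °C on standard medium. Mutant and wild-type larvae thus differ in age as well as genotype, and the parts of these cannot be told apart.

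Larval hemocytes float in the body cavity or sit on tissues. Most are plasmatocytes, macrophage-like cells that engulf bacteria and dying cells and that lay down basement membrane. Crystal cells carry the phenoloxidases of melanisation, and lamellocytes are flat cells that wrap large foreign bodies. Hemocytes are known to settle on larval tumours in flies, in part where the basement membrane is broken. In whole dissected tissues, more blood cells on a tissue and more RNA of a gene per cell cannot be told apart, and RNA made by the tissue's own cells is read in the same signal.

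The targeted RNA checks the lgl label: l(2)gl read 3.63 ± 1.62 log2 (SD, n = 3) in lgl discs, against 10.62 ± 0.15 (SD, n = 2) in wild-type discs. It read 2.41 ± 0.35 (SD, n = 3) in lgl brains, against 9.41 ± 0.68 (SD, n = 2) in wild-type brains. The scrib probe set averaged 10.11 in scrib discs, against 10.25 in wild-type discs, so its RNA does not check the scrib label. Between 40.1% and 43.1% of probe sets reached 4 log2 on each array. The pooled SD within a group was 0.33 to 0.45 log2 in the 4 mutant groups, against 0.65 in wild-type discs and 0.66 in wild-type brains. The p-values below measure only the spread between these samples, which may be technical, and the number of arrays limits the precision.

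NimC1, Hml and Pxn read highest in lgl tissues. Eater and He were far lower in scrib discs than in lgl discs, with wild-type arrays spread widely. Ppn read high in discs of every genotype and was higher in lgl than in scrib tissue. NimA was present in lgl and wild-type brains and at the low level in scrib brains and in all discs. Values of crq and srp passed no comparison.

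**Figure D1:**
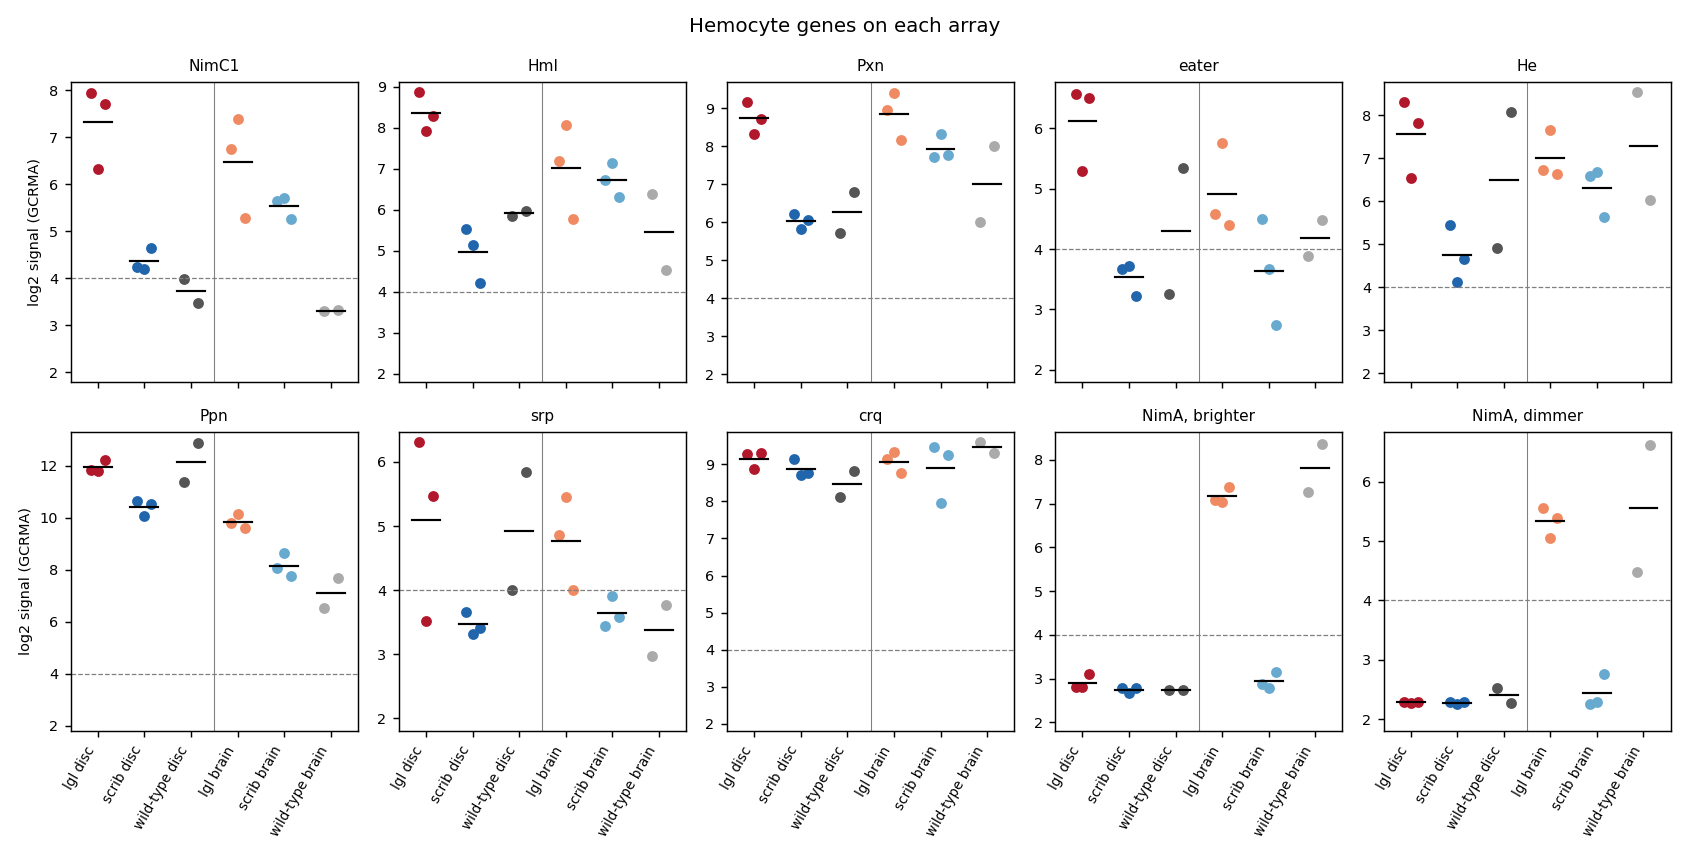
Log2 signal (y axis) of the tested hemocyte probe sets on each array, with lgl, scrib and wild-type wing discs on the left and the same genotypes in brain complexes on the right; points are arrays, bars are group means, and the dashed line marks 4 log2. NimC1 read 6.34 to 7.94 in lgl discs and 3.47 to 3.98 in wild-type discs, while the brighter NimA probe set read 7.05 to 7.38 in lgl brains and 2.79 to 3.16 in scrib brains.

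NimC1 is a phagocytosis receptor of the Nimrod family, with EGF-like repeats, found on the surface of plasmatocytes. Its probe set read 7.94, 6.34 and 7.70 log2 on the lgl disc arrays, 4.24, 4.19 and 4.66 on the scrib disc arrays, and 3.98 and 3.47 on the wild-type disc arrays. It read 6.75, 7.39 and 5.28 on the lgl brain arrays, 5.64, 5.71 and 5.27 on the scrib brain arrays, and 3.30 and 3.33 on the wild-type brain arrays. In each tissue every mutant array lay above both wild-type arrays, and all 4 wild-type arrays lay under 4. The lgl disc arrays lay clear of the scrib disc arrays, while lgl and scrib brain arrays overlapped. By mean the order was lgl discs, lgl brains, scrib brains, scrib discs and then the wild-type groups, which lay under 4 and have no measured order, and the lgl disc arrays overlapped the lgl brain arrays.

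Hml encodes hemolectin, a large secreted protein of the hemolymph clot whose promoter is widely used to mark larval blood cells. Its probe set read 8.88, 7.92 and 8.29 log2 in lgl discs, 5.54, 5.14 and 4.22 in scrib discs, and 5.85 and 5.98 in wild-type discs. It read 7.19, 8.08 and 5.77 in lgl brains, 6.72, 7.14 and 6.31 in scrib brains, and 6.38 and 4.53 in wild-type brains. The lgl disc arrays were the highest and did not overlap either of the other disc groups, and the scrib disc arrays all lay below both wild-type disc arrays. In brains the 3 genotypes overlapped.

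Pxn encodes peroxidasin, a secreted peroxidase of the basement membrane that plasmatocytes make. The tested probe set read 9.17, 8.31 and 8.71 log2 in lgl discs, 6.23, 5.82 and 6.06 in scrib discs, and 5.71 and 6.81 in wild-type discs. It read 8.95, 9.41 and 8.16 in lgl brains, 7.71, 8.33 and 7.76 in scrib brains, and 6.01 and 8.01 in wild-type brains. The lgl arrays lay above the wild-type arrays in both tissues, while scrib arrays overlapped wild type in both. The 2 wild-type brain arrays stood far apart.

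Eater is another EGF-repeat phagocytosis receptor, needed for plasmatocytes to take up bacteria and to attach in the larva. Its probe set read 6.57, 5.29 and 6.51 log2 in lgl discs, 3.67, 3.72 and 3.22 in scrib discs, and 3.25 and 5.35 in wild-type discs. It read 4.59, 5.75 and 4.40 in lgl brains, 4.50, 3.67 and 2.74 in scrib brains, and 3.89 and 4.49 in wild-type brains. All 3 scrib disc arrays were under 4, the lgl disc arrays were all over 5, and the wild-type disc arrays fell 1 in each of these ranges.

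He, hemese, is a transmembrane sialoglycoprotein found on all larval hemocyte types. Its probe set read 8.30, 6.54 and 7.82 log2 in lgl discs, 5.44, 4.13 and 4.67 in scrib discs, and 4.92 and 8.07 in wild-type discs. It read 6.73, 7.66 and 6.63 in lgl brains, 6.59, 6.67 and 5.63 in scrib brains, and 8.54 and 6.02 in wild-type brains. The wild-type arrays of each tissue spanned most of the range seen in the mutants, with an SD of 2.23 log2 in discs and 1.78 in brains (n = 2 each).

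Ppn encodes papilin, a secreted proteoglycan-like protein of the extracellular matrix. Its probe set read 11.82, 11.82 and 12.22 log2 in lgl discs, 10.63, 10.07 and 10.52 in scrib discs, and 11.39 and 12.87 in wild-type discs. It read 9.81, 10.14 and 9.61 in lgl brains, 8.08, 8.66 and 7.75 in scrib brains, and 6.53 and 7.69 in wild-type brains. Scrib discs were the lowest disc group and overlapped neither other group, whereas in brains the order was lgl, scrib and wild type with no overlap.

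The GATA factor srp, which specifies blood cell and fat body fate, read low. Its probe set gave 6.31, 3.52 and 5.47 log2 in lgl discs, 3.66, 3.32 and 3.41 in scrib discs, and 4.01 and 5.85 in wild-type discs. In brains it gave 4.86, 5.45 and 4.0 in lgl, 3.44, 3.91 and 3.58 in scrib, and 2.98 and 3.77 in wild type. No scrib array of either tissue reached 4.

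Croquemort, crq, is a CD36-related receptor with which plasmatocytes take up apoptotic cells. Its probe set averaged 9.15 ± 0.24 log2 in lgl discs, 8.87 ± 0.22 in scrib discs (SD, n = 3 each) and 8.47 ± 0.49 in wild-type discs (SD, n = 2). It averaged 9.07 ± 0.29 in lgl brains, 8.89 ± 0.82 in scrib brains (SD, n = 3 each) and 9.46 ± 0.21 in wild-type brains (SD, n = 2). The 16 arrays lay between 7.95 and 9.61, with no group set apart in the way NimC1 or Hml was.

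NimA is a Nimrod family member that has a single EGF-like domain and a transmembrane stretch, and its role in flies is little known. Its brighter probe set read 7.09, 7.05 and 7.38 log2 in lgl brains, 2.89, 2.79 and 3.16 in scrib brains, and 7.27 and 8.37 in wild-type brains. It read 2.68 to 3.10 on the 8 disc arrays. Its dimmer probe set read 5.56, 5.05 and 5.39 in lgl brains, 2.26, 2.29 and 2.77 in scrib brains, and 4.47 and 6.62 in wild-type brains, and 2.26 to 2.53 on the 8 disc arrays. Both probe sets thus passed 4 on the 5 lgl and wild-type brain arrays and on no other array, a pattern unlike that of every other gene of the set.

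In wing discs, lgl tissue was compared with wild-type tissue. NimC1 was higher in lgl discs by 3.60 ± 0.54 log2 (SE), at least 10.03-fold (adjusted p = 0.00049). Hml was 5.47-fold higher in lgl discs (log2 2.45 ± 0.65 SE, adjusted p = 0.019), and Pxn 5.55-fold higher (log2 2.47 ± 0.53 SE, adjusted p = 0.0057). These 3 of the 10 tested probe sets rose and 0 fell, beside 18.1% of all 8819 tested probe sets that passed in lgl discs, 12.0% up and 6.13% down. Adjusted p-values throughout are from limma with Benjamini-Hochberg adjustment over all tested probe sets, called below 0.05. The median log2 difference was 0.87 over the 10 probe sets and 0.01 over all tested.

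Eater was higher in lgl than in wild-type discs by 1.82 log2 (95% interval 0.42 to 3.23, adjusted p = 0.07), He by 1.06 (interval -0.89 to 3.01, adjusted p = 0.47) and crq by 0.69 (adjusted p = 0.25), none of which passed. The He difference was -0.52 without wild-type disc replicate 1 and 2.64 without wild-type disc replicate 2. Srp (0.17) and Ppn (-0.18) also turned sign with the choice of wild-type disc array left out, srp between -0.75 and 1.09 and Ppn between -0.92 and 0.56. NimA read under 4 in both groups. The call of Hml was lost without wild-type disc replicate 1 (2.38), wild-type disc replicate 2 (2.52) or lgl disc replicate 1 (2.19), with no filter and with array weights by group (adjusted p 0.0065 to 0.16 over the alternatives), and that of Pxn without wild-type disc replicate 1 (1.92, adjusted p 0.0034 to 0.073 over the alternatives). Eater passed without wild-type disc replicate 2 (2.87) or lgl disc replicate 2 (2.24), with adjusted p 0.013 to 0.57 over its alternatives.

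Markers of other tissues differed in the same comparison. Of 11 glial genes tested, 7 were higher in lgl than in wild-type discs, as were 4 of 10 neuronal genes. Among all tested probe sets 12.0% were higher and 6.13% lower in lgl discs. The summed signal of the glial list ranged over 12.51 to 12.58 log2 on lgl disc arrays, against 11.73 to 11.95 on wild-type disc arrays. Of 5 fat body genes, 4 were lower in lgl discs, with a summed signal of 10.04 to 10.77 log2, against 12.74 to 15.66 in wild-type discs. Of 7 salivary and ring gland genes 4 were lower in lgl discs, with a summed signal of 5.76 to 6.36 log2, against 9.68 to 13.28. Their part in the differences of the hemocyte genes was not tested.

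In scrib discs, at the same day 9, NimC1, Hml and Pxn did not pass against wild-type discs. NimC1 was 0.64 log2 higher than in wild type (95% interval -0.53 to 1.8, adjusted p = 0.45), Pxn 0.22 lower (log2 -0.22, interval -1.37 to 0.93, adjusted p = 0.84) and Hml 0.95 lower (log2 -0.95, interval -2.35 to 0.45, adjusted p = 0.33). Ppn was 3.30-fold lower in scrib than in wild-type discs (log2 -1.72 ± 0.43 SE, adjusted p = 0.012). It was the single call among the 10 probe sets, beside 23.2% of all tested probe sets that passed, 10.6% down and 12.6% up. The median log2 difference of the 10 was -0.49, against 0.00 over all tested.

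He (-1.75, adjusted p = 0.19), srp (-1.46, adjusted p = 0.16) and eater (-0.76, adjusted p = 0.45) did not pass in scrib discs. Without wild-type disc replicate 2, the differences of eater (0.28) and Pxn (0.33) turned sign and that of He was -0.17. The Ppn call was lost without wild-type disc replicate 2 (-0.98) and in a fit on the arrays of both groups alone (adjusted p 0.0026 to 0.14 over the alternatives), and He passed without wild-type disc replicate 1 (-3.32, adjusted p 0.024 to 0.95 over its alternatives). Of the fat body genes, 4 of 5 were lower in scrib discs than in wild type here too, with a summed signal of 9.57 to 9.90 log2, against 12.74 to 15.66 in wild-type discs. Wing disc genes were lower for 3 of 9 and higher for 0, and salivary and ring gland genes lower for 3 of 7 and higher for 0. Glial genes were split, with 3 of 11 higher and 1 lower. The shares of all tested probe sets were 12.6% higher and 10.6% lower, so the 1 lower glial gene is close to its share. The 3′ to 5′ log2 difference of the eIF-4a controls, a measure of RNA breakdown, averaged 1.78 in scrib discs, against 2.32 in wild-type discs, and that of the actin controls 0.92, against 0.84. Their part was not tested.

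**Figure D2:**
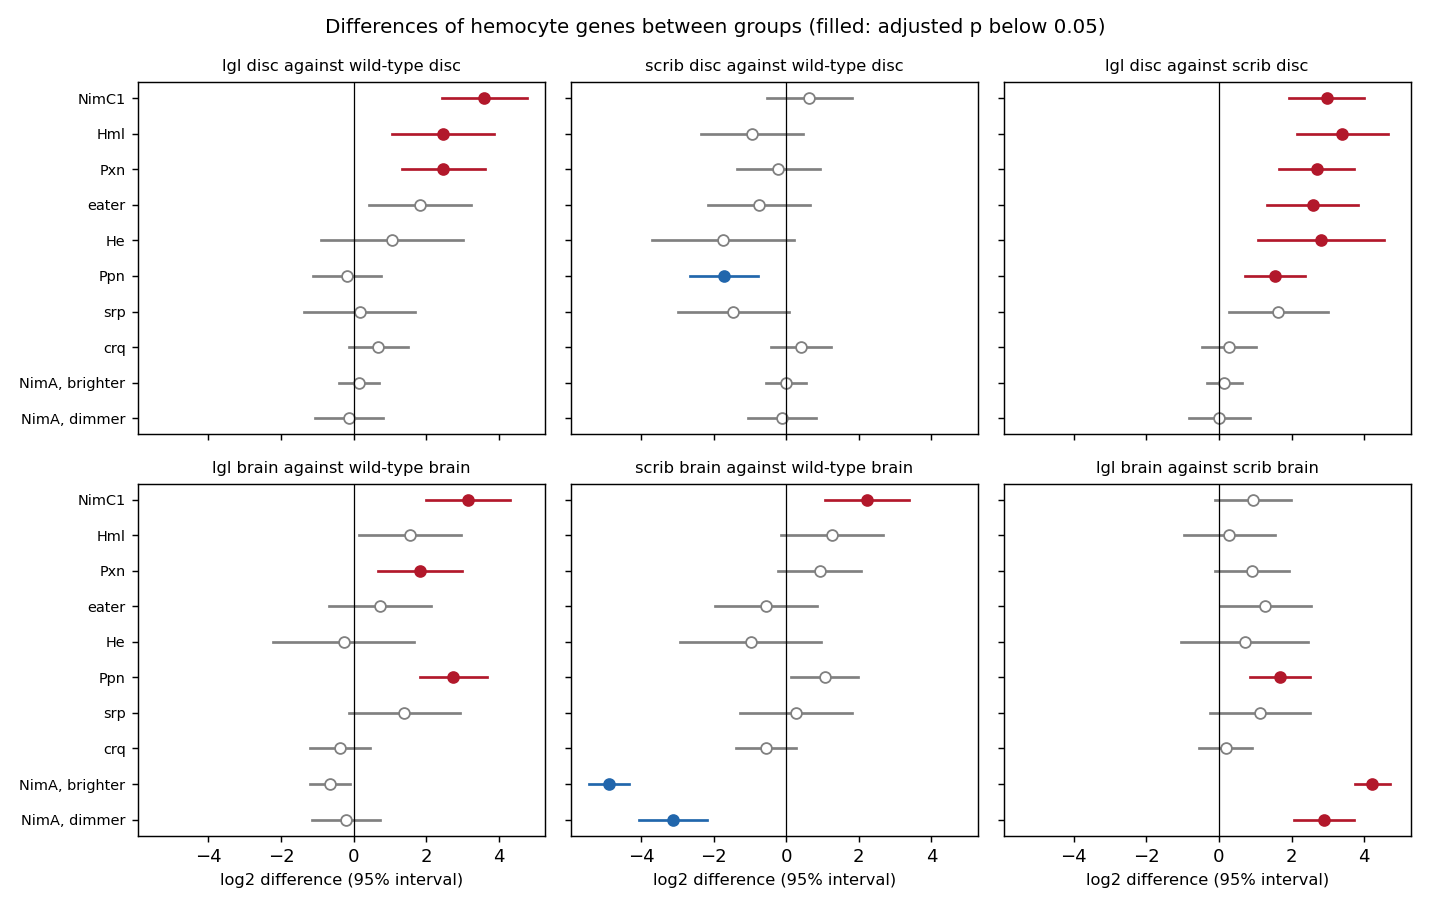
Log2 difference (x axis) of each tested hemocyte probe set in each comparison with its 95% interval from limma; filled points passed at an adjusted p below 0.05. NimC1 was higher in lgl discs than in wild type by 3.60 and than in scrib discs by 2.96, and the brighter NimA probe set was lower in scrib than in wild-type brains by -4.88.

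The mutants were then compared with each other, both at day 9, so that age does not differ. Hml was 10.6-fold higher in lgl than in scrib discs (log2 3.40 ± 0.58 SE, adjusted p = 0.0013), NimC1 7.80-fold (log2 2.96 ± 0.48 SE, adjusted p = 0.00093) and Pxn 6.47-fold (log2 2.69 ± 0.47 SE, adjusted p = 0.0016). Eater was at least 4.35-fold higher (log2 2.59 ± 0.58 SE, adjusted p = 0.0075), He 6.99-fold (log2 2.81 ± 0.80 SE, adjusted p = 0.027) and Ppn 2.92-fold (log2 1.54 ± 0.38 SE, adjusted p = 0.014). These 6 of 10 probe sets were higher and 0 lower in lgl discs, beside 20.5% of all tested that passed, 11.9% up and 8.54% down. For these 6, picked by their calls, the lgl and scrib arrays did not overlap. How many of all tested probe sets lacked overlap was not counted, so this adds nothing to the calls. The median difference was 2.11 log2 over the 10 probe sets, against 0.01 over all tested.

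The receptor crq differed between lgl and scrib discs by 0.28 log2 (95% interval -0.46 to 1.01, adjusted p = 0.63), and srp by 1.63 (adjusted p = 0.087, overlapping arrays). Hml, NimC1, Pxn and eater kept their calls in all 14 alternatives. He lost its call without lgl disc replicate 1 (2.43) or 3 (2.67), without scrib disc replicate 2 (2.5) or 3 (2.77), with no filter and with quantile normalization (adjusted p 0.0014 to 0.098 over the alternatives). Ppn lost its call without lgl disc replicate 3 (1.41) or scrib disc replicate 2 (1.38), at adjusted p up to 0.055, and srp passed without lgl disc replicate 2 (2.43) and with array weights (adjusted p 0.009 to 0.3).

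Glial and neuronal genes moved with this contrast. Of 11 glial genes 6 were higher and 1 lower in lgl than in scrib discs, and 6 of 10 neuronal genes were higher. The shares of all tested probe sets were 11.9% higher and 8.54% lower in lgl discs. The median of the glial list was 7.18 to 8.18 log2 on lgl disc arrays and 4.32 to 4.92 on scrib disc arrays, and its summed signal 12.51 to 12.58 and 12.24 to 12.46. The summed neuronal signal was 9.52 to 10.16 log2 on lgl disc arrays, against 7.5 to 7.54 on scrib disc arrays. Of 5 fat body genes, 1 was higher in lgl discs, apolpp, the lipophorin precursor (22.4-fold, adjusted p = 0.00025), and of 9 wing disc genes 1 was lower. The 3′ to 5′ log2 difference averaged 2.22 in lgl and 1.78 in scrib discs for the eIF-4a controls, and 0.87 in lgl and 0.92 in scrib discs for the actin controls. The part of these in the hemocyte differences was not tested.

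In brain complexes, Ppn was 6.72-fold higher in lgl than in wild-type tissue (log2 2.75 ± 0.43 SE, adjusted p = 0.00084) and NimC1 at least 5.55-fold (log2 3.15 ± 0.54 SE, adjusted p = 0.0014). Pxn was 3.55-fold higher (log2 1.83 ± 0.53 SE, adjusted p = 0.025). These 3 of 10 probe sets rose and 0 fell, beside 25.3% of all tested that passed in lgl brains, 14.0% up and 11.3% down. The median difference was 1.06 log2 over the 10, against 0.04 over all tested. Hml was 1.56 log2 higher in lgl brains (95% interval 0.15 to 2.96, adjusted p = 0.095) and srp 1.40 (adjusted p = 0.16), and neither passed.

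Eater (0.72), He (-0.27) and crq (-0.38) did not pass between lgl and wild-type brains, and the He difference was 0.99 without wild-type brain replicate 1 and -1.53 without wild-type brain replicate 2. The NimC1 call was lost in the fit on both groups alone and when arrays were weighted by group (adjusted p 0.0003 to 0.19 over the alternatives), and the Pxn call was lost in those, with no filter, and without wild-type brain replicate 1 (0.83), lgl brain replicate 1 (1.78) or lgl brain replicate 2 (1.55), with adjusted p 0.0013 to 0.32. Hml passed without wild-type brain replicate 1 (2.48) or lgl brain replicate 3 (2.18) and with a replicate block (1.87), with adjusted p 0.025 to 0.55. For the dimmer NimA probe set the difference was -0.21 (adjusted p = 0.76), but -1.29 without wild-type brain replicate 1 and 0.86 without wild-type brain replicate 2, both past the test. The brighter NimA probe set passed as lower in lgl brains without wild-type brain replicate 1 (-1.19) and with quantile normalization (-0.80), against -0.65 (adjusted p = 0.079) with all arrays.

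In scrib brains NimC1 was at least 2.91-fold higher than in wild type (log2 2.22 ± 0.54 SE, adjusted p = 0.0068), and it was the single hemocyte gene that rose. Of all tested probe sets 34.8% passed in scrib brains, 19.7% up and 15.1% down. Hml was 1.27 log2 higher (95% interval -0.14 to 2.67, adjusted p = 0.15), Ppn 1.06 (adjusted p = 0.073, no overlap of arrays) and Pxn 0.92 (adjusted p = 0.2). Both NimA probe sets fell. The brighter NimA probe set was at least 14.1-fold lower in scrib than in wild-type brains (log2 -4.88 ± 0.25 SE, adjusted p = 6.9e-08) and the dimmer NimA probe set at least 2.92-fold lower (log2 -3.11 ± 0.43 SE, adjusted p = 0.00019). The median of the 10 was -0.14 log2, against 0.07 over all tested.

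When arrays were weighted by group the NimC1 call in scrib brains was lost (adjusted p 0.0053 to 0.3 over the alternatives), and that of the dimmer NimA probe set in the fit on both groups alone (adjusted p = 0.051). Hml passed without wild-type brain replicate 1 (2.19, adjusted p 0.044 to 0.74 over the alternatives), and without wild-type brain replicate 2 Ppn (1.64, adjusted p 0.018 to 0.51) and Pxn (1.92, adjusted p 0.0099 to 0.94) passed. Without wild-type brain replicate 1 the Pxn difference was -0.08. The comparisons of lgl and of scrib brains with wild type share the same 2 wild-type arrays, and likewise those of discs. In brains of both mutants 7 of 10 neuronal genes were lower than in wild type. The shares of all tested probe sets were 14.0% higher and 11.3% lower in lgl brains, and 19.7% and 15.1% in scrib brains. Of 4 tracheal genes 3 were higher in lgl brains and 2 in scrib brains, with a summed tracheal signal of 10.99 to 11.27 log2 in lgl, 9.91 to 11.09 in scrib and 7.41 to 9.29 in wild-type brains. The eIF-4a 3′ to 5′ difference averaged 1.79 log2 in scrib brains, against 2.51 in wild-type brains, and that of actin 0.97, against 0.99. The part of these shifts in the hemocyte differences was not tested.

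Between the mutants, brains differed in Ppn and NimA. Ppn was 3.23-fold higher in lgl than in scrib brains (log2 1.69 ± 0.38 SE, adjusted p = 0.013). The brighter NimA probe set was at least 9.02-fold higher (log2 4.23 ± 0.23 SE, adjusted p = 1.3e-07) and the dimmer NimA probe set at least 2.52-fold higher (log2 2.90 ± 0.39 SE, adjusted p = 0.00042), and these 3 of 10 probe sets stand beside 11.5% of all tested that passed, 6.08% up and 5.42% down in lgl brains. The Ppn call was lost without lgl brain replicate 2 (1.55) or scrib brain replicate 3 (1.48), at adjusted p up to 0.057. The eIF-4a 3′ to 5′ difference averaged 2.24 log2 in lgl and 1.79 in scrib brains, and that of actin 0.81 and 0.97. The part of RNA quality in these differences was not tested.

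Of the 6 genes that differed between the mutant discs, 5 did not pass between the brains. Hml differed by 0.29 log2 between lgl and scrib brains (95% interval -0.97 to 1.54, adjusted p = 0.81), NimC1 by 0.93 (interval -0.11 to 1.97, adjusted p = 0.25) and Pxn by 0.91 (interval -0.12 to 1.93, adjusted p = 0.25). Eater (1.28, adjusted p = 0.18) and He (0.71, adjusted p = 0.64) did not pass either. NimC1 passed without lgl brain replicate 3 (1.52, adjusted p 0.04 to 0.65 over the alternatives). The median of the 10 was 1.03 log2, against -0.04 over all tested. Whether the difference between lgl and scrib itself differs between discs and brains was not tested.

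In wild-type larvae of day 5, discs and brains differed in Ppn and NimA. Ppn was 32.5-fold higher in wild-type discs than brains (log2 5.02 ± 0.47 SE, adjusted p = 1.6e-06), while the brighter NimA probe set was at least 14.1-fold lower (log2 -5.07 ± 0.28 SE, adjusted p = 1.9e-08) and the dimmer NimA probe set at least 2.92-fold lower (log2 -3.15 ± 0.47 SE, adjusted p = 0.00012). That is 1 probe set higher and 2 lower of 10, beside 42.8% of all tested that passed, 20.5% up and 22.3% down in discs. Pxn passed as lower in discs without wild-type brain replicate 1 (-1.75, against -0.75 with all arrays), srp passed as higher without wild-type disc replicate 1 (2.47, against 1.55) and with quantile normalization, and the dimmer NimA probe set lost its call in the fit on both groups alone (adjusted p = 0.086).

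The effect of each mutant was then set against itself across the tissues. The lgl effect on Ppn was lower in discs (log2 -0.18) than in brains (2.75), with a difference of -2.93 ± 0.61 (SE, adjusted p = 0.0072), and this was the 1 call among 10 probe sets, beside 13.5% of all tested that passed, 4.50% with a lower and 8.97% with a higher effect in discs. The lgl call on Ppn was lost with array weights by group. The scrib effect on Ppn was also lower in discs (-1.72) than in brains (1.06), with a difference of -2.78 ± 0.61 (SE, adjusted p = 0.012). NimA read under 4 in scrib and wild-type discs, so a fall could not be seen there, and the difference between tissues restates its fall in scrib brains with no measured size. The fit gave 4.88 ± 0.36 for the brighter probe set (SE, adjusted p = 7.2e-06) and 2.99 ± 0.61 for the dimmer (SE, adjusted p = 0.0084). These are 2 higher and 1 lower of 10, beside 11.3% of all tested that passed, 6.33% higher and 4.97% lower.

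For NimC1 the lgl effect differed between discs and brains by 0.45 ± 0.76 log2 (SE, adjusted p = 0.75) and for Hml by 0.90 ± 0.92 (SE, adjusted p = 0.58). The scrib effect on Hml was -0.95 in discs and 1.27 in brains, a difference of -2.22 (95% interval -4.20 to -0.23, adjusted p = 0.15). That on NimC1 differed by -1.59 (interval -3.23 to 0.06, adjusted p = 0.21) and passed in the fit on the arrays of the 4 groups alone (adjusted p 0.032 to 0.77 over the alternatives). Without wild-type brain replicate 2 the scrib effect on Pxn differed by -2.14, against -1.14 with all arrays. Without wild-type brain replicate 1 the lgl effect on the NimA probe sets differed by 1.34 and 1.17, against 0.79 and 0.10. NimA read under 4 in lgl and wild-type discs. Its lgl values thus restate those of lgl brains and have no measured size as a difference between tissues.

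In lgl, scrib and wild-type discs and in lgl brains the hemocyte genes tended to be high or low on the same array. Lgl disc replicate 2 had the lowest value of its group for 9 of the 10 probe sets, whereas 35.8% of all tested probe sets were lowest there. Lgl brain replicate 2 had the highest and lgl brain replicate 3 the lowest value for the same 8 probe sets, all but those of NimA, against 36.3% and 46.8% of all tested. Scrib disc replicate 2 was lowest for 8 of 10 (42.3% of all tested). Wild-type disc replicate 1 was lowest for 8 of 10 (53.0% of all tested), and wild-type disc replicate 2 highest for 7 of 10 (51.5%). Brains of the other genotypes were split. In scrib brains replicates 1, 2 and 3 were lowest for 3, 2 and 5 of 10. In wild-type brains replicate 1 was highest for Hml, crq and He and replicate 2 for the other 7 probe sets, NimC1 and Pxn among them. The probe sets share these arrays and their RNA, so the counts describe the arrays and are not independent of each other.

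Over the 16 arrays, NimC1 had a Pearson r of 0.84 with Hml, 0.82 with Pxn, 0.65 with eater, 0.57 with srp, 0.38 with He, 0.33 with Ppn, 0.18 with crq and -0.09 with NimA. Hml had an r of 0.73 with Pxn, 0.72 with eater and 0.67 with He. These values describe 6 groups of arrays that share tissue, genotype and age. Among other named genes, the 5 most like NimC1 were the acetylcholine receptor subunit gene nAChRbeta3 (r = 0.94), the peptidase-family gene Ance-5 (0.93), the Nimrod gene NimB4 (0.89), NtR (0.88) and the scavenger receptor gene Sr-CI (0.83). Those most like Hml were Sr-CI (0.93), Ance-5 (0.91), NimB4 (0.87), NtR (0.86) and the type IV collagen gene vkg (0.86). Sr-CI, for example, averaged 6.72 log2 in lgl discs, 4.35 in scrib discs, 4.75 in wild-type discs, 5.82 in lgl brains, 5.56 in scrib brains and 4.76 in wild-type brains. Ance-5 averaged under 4 in every scrib and wild-type group, and nAChRbeta3 in scrib discs and both wild-type groups. Their r values thus rest partly on low signals.

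NimA, He and NimC1 lie in the Nimrod cluster on chromosome arm 2L (gene order of assembly Release 6 plus ISO1 MT), where NimA is followed by NimB1 to NimB5, He and NimC1. In scrib brains, where NimA fell, none of its tested neighbours up to NimC1 on one side and Vajk2 on the other passed as lower. NimB2, a secreted Nimrod protein gene, was 18.2-fold higher in scrib than in wild-type brains (log2 4.18 ± 0.56 SE, adjusted p = 0.00016), reading 8.59, 9.75 and 9.92 log2 in scrib brains, against 5.29 and 5.18 in wild-type brains. NimB4, another secreted member, was at least 2.78-fold higher (log2 1.87 ± 0.41 SE, adjusted p = 0.0039), a call lost when arrays were weighted by group (adjusted p 0.002 to 0.22 over the alternatives). Vajk2 and Vajk3, the genes on the other side, did not pass in scrib brains (log2 -2.0 and -1.61, adjusted p = 0.11 and 0.12). The rises of NimB2 and NimB4 were not limited to scrib brains. In lgl brains, where NimA did not pass, NimB2 was 4.26-fold (adjusted p = 0.017) and NimB4 at least 2.61-fold (adjusted p = 0.0082) higher than in wild type. Both also passed as higher in lgl discs (log2 2.12 and 1.45, adjusted p = 0.019 and 0.027), and neither passed in scrib discs.

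Other genes of blood cells were counted in 5 lists. Of the 16 Nimrod and scavenger receptor genes listed, 9 were tested. In lgl discs 6 were higher and 0 lower than in wild type (median 1.01 log2), in scrib discs 0 passed (median 0.00), in lgl brains 3 were higher (median 1.06), and in scrib brains 3 were higher and 1 lower (median 0.80). Of all tested probe sets 12.0% were higher in lgl discs, 12.6% in scrib discs, 14.0% in lgl brains and 19.7% in scrib brains. Those lower were 6.13%, 10.6%, 11.3% and 15.1% in the same order, so the 1 lower gene in scrib brains is close to its share. The lower gene was Sr-CII, whose call was lost without wild-type brain replicate 1 (-0.58), with array weights and in the fit on both groups alone. Between lgl and scrib discs 4 were higher in lgl (median 0.60), beside 11.9% of all tested, among them Sr-CI at least 5.04-fold (adjusted p = 0.009) and NimB4 3.18-fold (adjusted p = 0.0068), 2 calls lost with quantile normalization (adjusted p = 0.062 and 0.076). The scavenger receptor gene emp was 4.59-fold higher in lgl brains (adjusted p = 0.00013) and 4.11-fold higher in scrib brains (adjusted p = 0.00011) than in wild type. Whether the emp signal came from blood cells or from other cells of the brain complex was not tested.

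**Figure D3:**
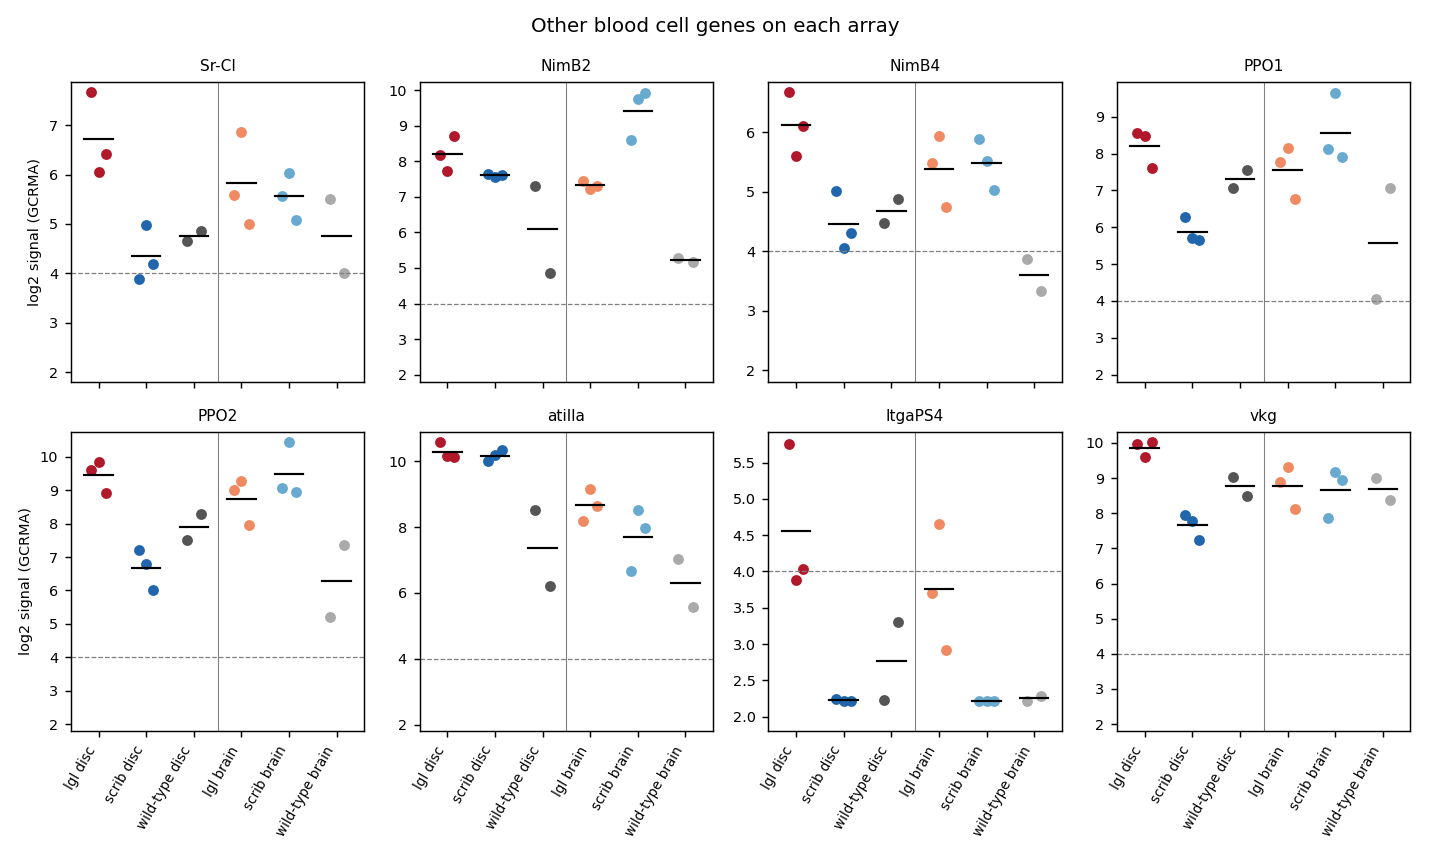
Log2 signal (y axis, a separate range in each panel) of 8 other blood cell genes on each array, with lgl, scrib and wild-type discs on the left and brains on the right; points are arrays, bars are group means, and the dashed line marks 4 log2. PPO2 read 8.91 to 9.85 in lgl discs and 6.02 to 7.22 in scrib discs, whereas atilla read above 10 in both mutant discs.

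Genes of matrix, clotting and opsonins that plasmatocytes and fat body make differed between the mutant discs. Of 11 tested, 5 were higher and 0 lower in lgl than in scrib discs (median 1.08 log2), beside 11.9% higher of all tested. They included Glt, glutactin (8.37-fold, adjusted p = 0.00043), the perlecan gene trol (5.26-fold, adjusted p = 5.6e-05) and the collagen IV genes vkg (4.63-fold, adjusted p = 0.0012) and Col4a1 (4.50-fold, adjusted p = 0.00072). Vkg read 9.98, 9.60 and 10.02 log2 in lgl discs, against 7.95, 7.78 and 7.23 in scrib discs. Against wild-type discs, 3 were higher and 1 lower in lgl discs, beside 12.0% and 6.13% of all tested, and 1 was higher and 5 lower in scrib discs, beside 12.6% and 10.6%. Tig, tiggrin, an integrin ligand of the matrix, was 12.5-fold higher in lgl than in wild-type discs (adjusted p = 0.0029), a call lost in the fit on both groups alone (adjusted p 0.0013 to 0.059 over the alternatives). In brains 5 of 11 were higher in each mutant than in wild type and 0 lower, beside 14.0% higher of all tested in lgl and 19.7% in scrib brains, and 0 passed between the mutants.

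PPO2 and PPO1 encode the phenoloxidases stored in crystal cells. PPO2 read 9.59, 9.85 and 8.91 log2 in lgl discs, 7.22, 6.78 and 6.02 in scrib discs, and 7.5 and 8.28 in wild-type discs. It read 8.99, 9.26 and 7.97 in lgl brains, 9.06, 10.43 and 8.95 in scrib brains, and 5.21 and 7.36 in wild-type brains. The scrib arrays lay below both wild-type arrays in discs, a difference that did not pass, and above both in brains.

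All 3 tested crystal cell genes were higher in lgl than in scrib discs, beside 11.9% of all tested probe sets. PPO2 was 6.86-fold higher (adjusted p = 0.0047), the Runx factor lz, which specifies crystal cells, at least 1.44-fold (adjusted p = 0.011), and PPO1 5.06-fold (adjusted p = 0.027). In scrib brains PPO2 was 9.13-fold (adjusted p = 0.0024) and PPO1 8.05-fold (adjusted p = 0.0079) higher than in wild type, and in lgl brains PPO2 was 5.49-fold higher (adjusted p = 0.016), beside 19.7% of all tested that were higher in scrib and 14.0% in lgl brains. The scrib effect was lower in discs than in brains for PPO2 by -4.41 ± 0.91 log2 (SE, adjusted p = 0.009) and for PPO1 by -4.45 ± 1.06 (SE, adjusted p = 0.018), while in discs alone scrib and wild type did not pass (PPO2 -1.22, adjusted p = 0.2). Without wild-type brain replicate 1, PPO1 in scrib brains (1.51) and PPO2 in lgl brains (1.38) lost their calls, as did PPO2 without lgl brain replicate 2 (2.20), and between the mutant discs PPO1 lost its call without lgl disc replicate 1 (2.16) or 2 (2.21) or scrib disc replicate 2 (2.25) or 3 (2.22). With array weights by group, PPO2 and PPO1 in scrib brains, PPO2 in lgl brains and both differences between tissues lost their calls (adjusted p = 0.093 to 0.25), and in the fit on the groups compared alone the 3 brain calls and the PPO1 difference did.

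Of 7 tested lamellocyte genes, 6 were higher and 0 lower in lgl discs than in wild type (median 1.79 log2), 3 were higher in scrib discs (0.75), 4 in lgl brains (1.5) and 2 in scrib brains (0.24), and 2 were higher in lgl than in scrib discs (0.84). The shares of all tested probe sets that were higher were 12.0% in lgl discs, 12.6% in scrib discs, 14.0% in lgl brains, 19.7% in scrib brains and 11.9% between the mutant discs. The filamin gene cher was 5.19-fold higher in lgl discs (adjusted p = 5.8e-05) and 5.28-fold higher in scrib discs (adjusted p = 5.5e-05). The surface marker gene atilla was 7.56-fold higher in lgl discs (adjusted p = 0.007) and 6.98-fold higher in scrib discs (adjusted p = 0.0081), both calls lost without wild-type disc replicate 2 (1.77 and 1.65) and in the fits on 2 groups alone. The alpha integrin gene ItgaPS4 was at least 1.47-fold higher in lgl than in scrib discs (log2 2.32 ± 0.48 SE, adjusted p = 0.0047). PPO3, the phenoloxidase of lamellocytes, read 2.21 to 2.37 on all 16 arrays. Several of these genes, cher among them, are also active in epithelia.

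Of 10 tested regulators of blood cell fate, 3 were higher and 1 lower in lgl than in wild-type discs, beside 12.0% higher and 6.13% lower of all tested, and 1 higher and 1 lower in scrib discs, close to the 12.6% and 10.6% of all tested. The fall in both was in kn, a factor of lamellocyte fate that also patterns the wing disc (10.1-fold lower in lgl discs, adjusted p = 0.00013, and at least 20.8-fold lower in scrib discs, adjusted p = 2.5e-06). In brains 2 were higher in lgl and 1 in scrib than in wild type, where 14.0% and 19.7% of all tested were, so these counts lie near or below the background. Between the mutants, 4 of 10 were higher in lgl discs, beside 11.9% of all tested, and 0 passed in brains.

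**Figure D4:**
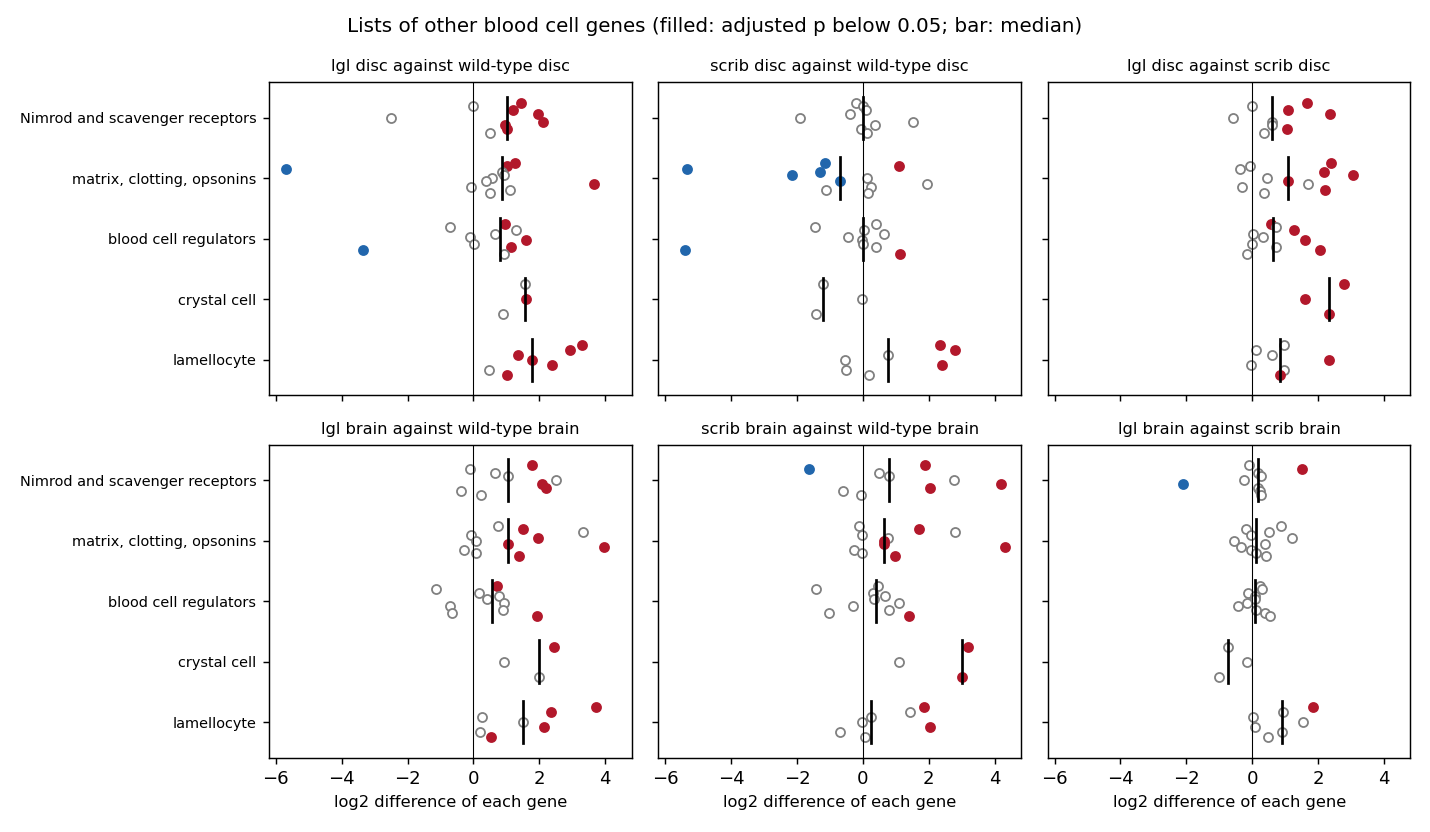
Log2 difference (x axis) of each tested gene of the 5 lists of other blood cell genes in 6 comparisons; filled points passed at an adjusted p below 0.05, red higher and blue lower, and bars are list medians. The crystal cell median was 2.34 between lgl and scrib discs and 3.01 between scrib and wild-type brains, and 6 of 7 lamellocyte genes were higher in lgl than in wild-type discs.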

How the data were processed

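The deposited values are log2 signals, which the authors made with GCRMA, per the submitters' processing notes. Their version and genome build are not given in the sources used here. GCRMA corrects background, normalizes between arrays and summarises each probe set, and it leaves a floor of 2.21 log2 on every array. Probe sets were named from the array's annotation table (13647 with 1 gene symbol, 402 with several, 4720 with none, 183 controls), and no coordinates or sequences are given.

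Limma 3.58.1 in R 4.3.3 fitted a mean for each of the 6 groups to 8819 probe sets at or above 4 log2 on at least 2 arrays, with 10 residual degrees of freedom. In each of 9 contrasts p-values were Benjamini-Hochberg adjusted, with calls below 0.05. A fold is taken from group means. Arrays of the dimmer group that read under 4 were set to 4, which gives a lower bound ("at least"), and a brighter mean under 4 gives no fold. Summed list signals are log2 of the sum of linear signals.

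All 11 probe sets of the 9 genes are reported. From each of 12 gene lists up to 4 genes per comparison were named by smallest adjusted p, and the 5 most like NimC1 and Hml by Pearson r. A gene with several probe sets stands in a list by the one with the highest mean. Vajk2, Vajk3, NimB2 and NimB4 were also named as neighbours of NimA, and PPO3 and apolpp after their values were seen. The genes and lists were chosen with earlier results of these data known. Results were recomputed without the filter, with it at 6, with quantile normalization, with weights for arrays by group, with trended and robust variances, with the replicate number as a block, with genes given by a single probe set, on the compared arrays only, with a fold of 2 required too, and without each array in turn.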

Additional observations from a re-analysis of the deposited data

Results flagged for a closer look

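The effects on Ppn differed between discs and brains by the test of the difference itself, and those of scrib on NimA passed the same test. For Ppn, the lgl effect was lower in discs than in brains, with a log2 difference of -2.93 (adjusted p = 0.0072, limma). That of the scrib effect was -2.78 (adjusted p = 0.012, limma). The lgl call on Ppn was lost with array weights by group. Wild-type Ppn values had an SD of 1.05 log2 in discs and 0.82 in brains (n = 2 each). For NimA, the fit gave a difference of the scrib effect of 4.88 log2 for the brighter probe set (adjusted p = 7.2e-06) and 2.99 for the dimmer (adjusted p = 0.0084). NimA read under 4 log2 in discs of both genotypes, where a fall could not be seen, so these values restate its fall in scrib brains and have no measured size. No group was large enough for a check of single outlying arrays.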

How the results depend on the processing

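Of 90 differences of hemocyte probe sets, 26 were called and 12 of these kept the call under every alternative, and 48 of the 64 others were never called. With array weights by group, which weigh down the spread-out wild-type arrays, 1 probe set was called between lgl and wild-type brains (3 with equal weights). In the lgl effect between tissues 0 were called (1 with equal weights, that of Ppn). In a fit on the arrays compared alone 1 was called between lgl and wild-type brains and 0 between scrib and wild-type discs (1 with all arrays). The causes were not tested. Without wild-type brain replicate 2, the dimmer NimA probe set reversed to 0.86 in lgl brains and to -0.98 in the lgl effect between tissues, against -1.29 and 1.17 without wild-type brain replicate 1. Leaving out single arrays gave 1 to 4 calls for lgl against wild-type discs, 0 to 2 for scrib against wild-type discs, 2 to 5 for lgl against wild-type brains, 3 to 5 for scrib against wild-type brains, 4 to 7 between mutant discs, 2 to 4 between mutant brains, 3 to 4 between wild-type tissues, 1 to 3 for the lgl effect and 3 to 4 for the scrib effect. Where 1 wild-type array remains, the pooled spread of the other groups stands in for its own.

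Among 36 same-numbered pairs, 6 had a correlation of deviations over 0.1 (range -0.17 to 0.43). The highest, 0.43, was that of wild-type discs with wild-type brains at replicates 1 and 2, which 2 arrays per group make equal. Whether those arrays share larvae or a day is not given, and the comparisons across tissues were fitted unpaired. With a replicate block 4 probe sets were called between lgl and wild-type brains, 3 without it, and the counts of the other 8 comparisons were the same. Of 100 calls of other blood cell genes followed in the same way, 31 were kept under every alternative. Over all tested probe sets, the calls with array weights by group against equal weights were 829 and 1600 for lgl discs, 880 and 2042 for scrib discs, 254 and 2228 for lgl brains, 780 and 3073 for scrib brains (each against wild type), 3529 and 1805 between mutant discs, 1923 and 1014 between mutant brains, 1844 and 3775 between wild-type tissues, and 171 and 1188 and 137 and 996 for the lgl and the scrib effects. Signals near the floor limit NimC1 (in wild type), eater, srp and NimA, whose differences below 4 log2 have no measured size, and 2 wild-type arrays per tissue limit every comparison with wild type.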
